A study of Mus musculus with 3 samples.

Results

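The genes described here are mt-Co1, mt-Co2 and mt-Co3, which encode the 3 subunits of cytochrome c oxidase that mouse mitochondria make themselves. They were chosen by name, as complex IV genes, and are 3 of the 15 messenger and ribosomal RNA genes of the mitochondrial chromosome that could be placed in these data. RNA from ovulated mouse oocytes was sequenced in 3 libraries, 1 from each of 3 litters, so the study holds 1 group and no control. The mothers were superovulated females of mixed strain with both copies of the LSD1 gene floxed (LSD1 FL/FL), all without the ZP3::Cre transgene, which would delete LSD1 in growing oocytes, so the gene was left intact. Oocytes were collected by embryonic day 0.5, and each library stands for a litter in the labels, without a stated number of oocytes. Total RNA was lysed directly and copied by SPIA, an isothermal amplification of cDNA, before the Illumina library was built. The oocyte label was not checked against nuclear marker genes, since an annotation of the files' build (mm9) was not used here.

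Cytochrome c oxidase, or complex IV, is the last enzyme of the mitochondrial respiratory chain. It passes electrons from cytochrome c to oxygen and pumps protons across the inner membrane. The products of mt-Co1, mt-Co2 and mt-Co3 form its catalytic core, while the remaining subunits are encoded in the nucleus. In mammals the heavy strand of the mitochondrial chromosome is transcribed as a long precursor, from which most messengers are released by cutting out the transfer RNAs between them, and oocytes carry far more mitochondrial DNA than other cells. Pieces of mitochondrial DNA have also been copied into nuclear chromosomes, where they lie as pseudogenes.

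All 3 genes lie on the plus strand of the mitochondrial chromosome, which is 16299 bases long in the files. The gene mt-Co1 (ENSMUSG00000064351.1) spans bases 5328 to 6872 and encodes the subunit with the oxygen-reducing centre. The gene mt-Co2 (ENSMUSG00000064354.1) spans bases 7013 to 7696 and encodes the subunit that accepts electrons from cytochrome c. The gene mt-Co3 (ENSMUSG00000064358.1) spans bases 8607 to 9390 and encodes the remaining core subunit, which carries no redox metal. Each is a single exon without introns, 1545, 684 and 784 bases long, with a GC content of 39.9%, 38.6% and 38.9%. The ends of the genes are shown because the depth at them is described below. The last 30 bases of each transcript in GENCODE M21 follow, with the stop codon, or what the DNA holds of it, in capitals.
mt-Co1: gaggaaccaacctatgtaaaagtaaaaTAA
mt-Co2: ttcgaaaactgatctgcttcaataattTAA
mt-Co3: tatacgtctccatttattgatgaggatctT
The mt-Co3 gene is 1 base longer than a whole number of codons and ends on a single T of its stop codon, which polyadenylation completes in the messenger.

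A stretch of the nuclear genome carries the same sequence. GENCODE M21, built on GRCm38, annotates 3 pseudogenes on the minus strand of chromosome 1 that match these genes, namely Gm29216, Gm28661 and Gm28437. Gm28661 matched mt-Co2 from base 1 to base 681 of the gene with 0 differing bases. Gm28437 matched mt-Co3 from base 1 to base 783, also with 0 differing bases. Gm29216 matched only the 3' part of mt-Co1, from base 1054 to base 1545, with 6 differing bases in 492 aligned, or 98.8% identity. The first 60 aligned bases are shown because the edge of the copy lies in them, and the differing bases are in capitals.
mt-Co1, bases 1054 to 1113: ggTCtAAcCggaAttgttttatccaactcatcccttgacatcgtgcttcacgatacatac
Gm29216, bases 1 to 60: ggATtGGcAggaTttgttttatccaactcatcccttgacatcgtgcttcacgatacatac
Counted from 1 at the first base of mt-Co1, with the mitochondrial base first, the differences are T1056A, C1057T, A1059G, A1060G, C1062A and A1066T. From base 1067 on, the remaining 479 bases of mt-Co1 were identical to the pseudogene. No stretch of mt-Co2 or mt-Co3 that is matched by its pseudogene therefore offers a base that tells the nuclear from the mitochondrial sequence.

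The levels of the 3 genes were then compared. The level is the mean number of alignments over each base of a gene, per 1000000 alignments in the library, which is already per length and can be compared between genes. The libraries held between 31787887 and 35183199 alignments of 72 bases, of which 1.41% to 3.12% lay on the mitochondrial chromosome, the most in litter 3. These are shares of alignments and not of reads. Mitochondrial alignments that recur at nuclear copies, as described below, are counted again among the nuclear ones. Over the 13 messenger RNA genes of the chromosome, mt-Co1 ranked second by its mean level, mt-Co2 ranked 6 and mt-Co3 ranked 12.

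The level of mt-Co1 was 85.9 in litter 1, 73.6 in litter 2 and 215 in litter 3, or 125 ± 78.5 (SD, n = 3). Litters 1 and 2 were close to each other and litter 3 stood apart. The level of mt-Co2 was 74.4 in litter 1, 55.5 in litter 2 and 94.4 in litter 3, or 74.8 ± 19.4 (SD, n = 3). The level of mt-Co3 was 14.7 in litter 1, 11.1 in litter 2 and 15.7 in litter 3, or 13.9 ± 2.41 (SD, n = 3). Litter 2 was the lowest and litter 3 the highest for each of the 3 genes, although for mt-Co3 litters 1 and 3 were nearly level. These levels are relative to the alignments of each library, so they measure neither the number of oocytes nor the amount of RNA per oocyte.

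**Figure D1:**
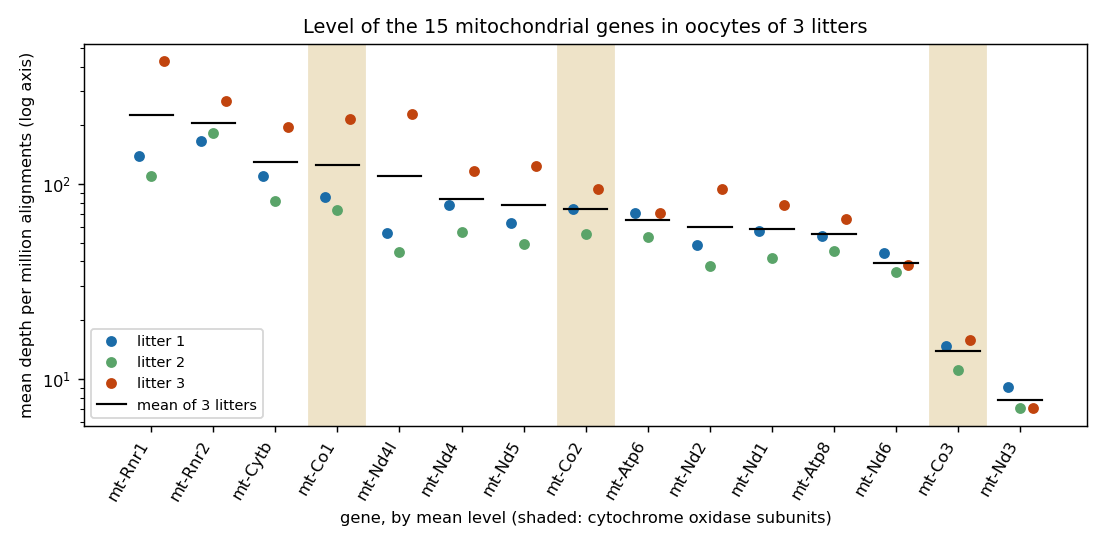
Mean depth per 1000000 alignments (log axis) of the 15 mitochondrial messenger and ribosomal RNA genes, with a point for each litter and a bar for the mean of 3 litters. The shaded genes mt-Co1, mt-Co2 and mt-Co3 have means of 125, 74.8 and 13.9, and only mt-Nd3 has a lower mean than mt-Co3.

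These levels rest on many alignments. Counted by their midpoints, mt-Co1 held 65054, 50303 and 148198 alignments in litters 1, 2 and 3, and mt-Co2 held 24858, 16770 and 28724. The smallest count was that of mt-Co3 in litter 2, at 3858 (95% exact Poisson interval 3737 to 3982), beside 5654 in litter 1 and 5467 in litter 3. Such intervals cover counting error only, since amplified reads are not independent molecules. Nothing in the labels says how the litters were split into libraries, so the SD may hold both biological and technical spread.

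Within each library the order of the 3 genes was the same, with mt-Co1 above mt-Co2 and mt-Co2 above mt-Co3. The gene mt-Co3 was 5.83-fold lower than mt-Co1 in litter 1, 6.61-fold lower in litter 2 and 13.7-fold lower in litter 3. It was also lower than mt-Co2, with log2 ratios of -2.33, -2.32 and -2.59, which are close values over the litters. The gene mt-Co2 was 1.16-fold, 1.33-fold and 2.28-fold lower than mt-Co1. On the log2 scale the mean difference was -3.01 ± 0.67 (SD, n = 3) for mt-Co3 over mt-Co1, -2.41 ± 0.15 for mt-Co3 over mt-Co2 and -0.60 ± 0.52 for mt-Co2 over mt-Co1. The direction was the same in 3 of 3 litters for each pair, and the two-sided exact sign-flip permutation test gave p = 0.25 for each, the smallest that 3 litters allow, so no difference could pass 0.05 in this test. The last of the 3 differences was barely larger than its SD. With each start position counted once, it was 0.0080.

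The neighbours of mt-Co1 and mt-Co2 in the order of mean levels lay within the spread between litters. The gene mt-Cytb, of complex III, stood just above mt-Co1 at 129 ± 59.8 (SD, n = 3), and mt-Nd4l, of complex I, just below at 109 ± 102. Around mt-Co2 stood mt-Nd5, of complex I, at 78.4 ± 39.4 and mt-Atp6, of ATP synthase, at 65.0 ± 9.93. For mt-Co3 the gap was wider, with mt-Nd6 above it at 39.3 ± 4.52 and mt-Nd3 below it at 7.73 ± 1.13. In every litter mt-Co3 was the second lowest of the 15 genes, and mt-Co1 was the fourth highest. Together the 3 genes took 16.5%, 15.8% and 18.2% of mitochondrial depth in litters 1, 2 and 3, or 16.8% ± 1.26 (SD, n = 3), of which mt-Co1 alone took 12.4% ± 2.09.

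The question of how much the genes varied between litters has no replicate check, because each litter is 1 library. The ratio of the highest to the lowest litter was 2.93 for mt-Co1, 1.70 for mt-Co2 and 1.41 for mt-Co3. For comparison, the median of the same ratio was 2.12 over the 10913 windows of 1 kb, anywhere in the genome, whose mean reached 10 alignments per 1000000. The mt-Co1 ratio exceeded that of 70.5% of those windows, while mt-Co2 exceeded 32.0% and mt-Co3 16.7%. All 3 genes were lower in litter 2 than in litter 1, with ratios of 0.857, 0.747 and 0.755 for mt-Co1, mt-Co2 and mt-Co3, and none differed 2-fold, as did 4.21% (higher) and 4.65% (lower) of windows. The ratio of litter 3 to litter 1 was 2.51, 1.27 and 1.07 for the same genes, so that 1 of 3 was over 2-fold higher, beside 22.7% of windows. The ratio of litter 3 to litter 2 was 2.93, 1.70 and 1.41, again with 1 of 3 over 2-fold higher, beside 24.7% of windows. No member was over 2-fold lower in litter 3, where 18.0% and 21.2% of windows were, against litters 1 and 2 respectively. The 3 ratios share their libraries and are not independent.

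Among the other 10 mitochondrial messengers, the ratio of the highest to the lowest litter ran from 1.25 for mt-Nd6 to 5.08 for mt-Nd4l, a wider range than that of the 3 members. Of these 10, 10 were lower in litter 2 than in litter 1, and 8 were higher in litter 3 than in litter 1. The median log2 ratio of litter 3 to litter 1 was 0.34 over the 3 members and 0.51 over the 10 others, and it was 0.12 over the windows. The direction of litter 3 depended on the scale for 2 of the 3 genes. Per 1000000 mitochondrial alignments, mt-Co1 was still highest in litter 3 (5214, 5226 and 6906 in litters 1, 2 and 3). On that scale mt-Co2 was lowest in litter 3, at 4514, 3943 and 3028, and so was mt-Co3, at 895, 791 and 504. As a share of all mitochondrial alignments, then, mt-Co1 gained in litter 3 while mt-Co2 and mt-Co3 lost. That total holds the genes themselves and the ribosomal RNAs, which also shifted. In litters 1, 2 and 3 mt-Rnr1 took 11.2%, 10.3% and 18.1% of mitochondrial depth, and mt-Rnr2 took 22.2%, 28.4% and 18.8%.

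Each gene's pattern over the litters was set beside those of the other 14 genes, by the largest difference in log2 level once each gene was centred on its own mean over the 3 libraries. The nearest to mt-Co1 were mt-Nd5 (0.19) and mt-Nd2 (0.20), both complex I subunits. The nearest to mt-Co2 were mt-Nd1 (0.08), of complex I, and mt-Atp8 (0.13), of ATP synthase. The nearest to mt-Co3 were mt-Atp6 (0.06), its upstream neighbour on the chromosome, and mt-Atp8 (0.12). The least like mt-Co2 and mt-Co3 was mt-Nd4l in both cases, at 1.09 and 1.26. With 3 libraries, such likeness describes these samples only.

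Depth was far from even along the genes. In mt-Co1 the first 100 bases had a mean depth per 1000000 of 11.1, 9.15 and 22.2 in litters 1, 2 and 3, and the peak came at bases 301 to 400, with 297, 254 and 673. A trough followed at bases 701 to 800, with 5.88, 5.11 and 17.2, and a lower maximum at bases 1201 to 1300, with 167, 133 and 299. By stretches of 100 bases the peak and the trough thus fell at the same places in the 3 litters, and they differed by over an order of magnitude within a litter. By single bases litter 3 stood apart, with its highest depth at base 331 and its lowest inner depth at base 658, against bases 373 and 774 in litter 1 and bases 373 and 776 in litter 2.

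The profile of mt-Co2 was flatter. Its lowest stretches were the first 100 bases, at 28.9, 16.7 and 63.1 in litters 1, 2 and 3, and the last 84, at 31.5, 20.3 and 48.4. Its highest was bases 401 to 500, with 135, 117 and 143. In mt-Co3 the highest stretch was bases 301 to 400 in litters 1 and 2, with 36.4 and 31.1, while in litter 3 bases 201 to 300 were slightly higher (32.7, against 32.0 at 301 to 400). Bases 501 to 700 of mt-Co3 were low in every litter, between 3.67 and 6.38 in each 100.

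**Figure D2:**
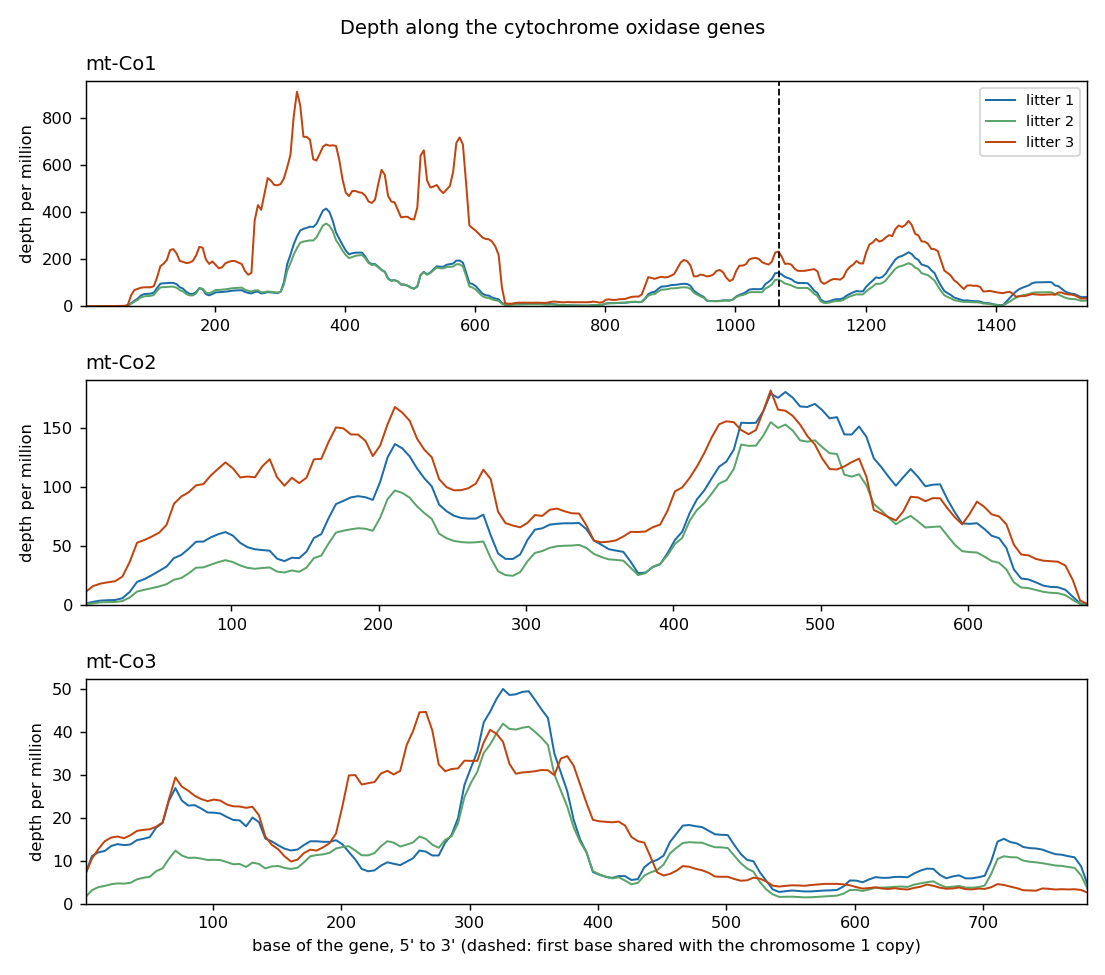
Depth per 1000000 alignments (linear axis from 0, averaged over 5 bases) along mt-Co1, mt-Co2 and mt-Co3 from 5' to 3', with a line for each litter. The dashed line marks base 1067 of mt-Co1, from which the gene is identical to the chromosome 1 copy without a break. Litter 3 is far above the others over the first 600 bases of mt-Co1, and falls below litter 1 near the 3' end of mt-Co1 and mt-Co3.

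The ratio of litter 3 to litter 1 was lower over the last part of each gene than over the parts before it. In mt-Co1 its ratio to litter 1 was 2.74 over the first of 3 equal parts of the gene, 3.18 over the middle part and 1.75 over the last. In mt-Co2 the ratio was 1.83, 1.31 and 0.924 over the same parts, and in mt-Co3 it was 1.38, 1.03 and 0.531. The last 84 bases of mt-Co3 held 11.6, 8.71 and 3.51 in litters 1, 2 and 3, the reverse of the order over the whole gene for litter 3. Bases 1401 to 1500 of mt-Co1 likewise held 69.3, 40.5 and 51.1, with litter 3 below litter 1.

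The following log2 ratio of the last to the first part within each library restates, for litters 1 and 3, the values above. For mt-Co1 it was -0.51, -0.81 and -1.15 in litters 1, 2 and 3 (-0.82 ± 0.32, SD, n = 3). For mt-Co2 it was 0.82, 0.98 and -0.16 (0.54 ± 0.62), and for mt-Co3 it was -1.04, -0.92 and -2.42 (-1.46 ± 0.83). Litter 3 had the lowest ratio in 3 of 3 genes, while litters 1 and 2 differed by at most 0.30. Of the 10 other messengers, 5 had a lower ratio in litter 3 than in litter 1 and 4 a lower one than in litter 2, so the tilt was not common to all messengers. With each start position counted once, mt-Co1 had ratios of 0.16, 0.15 and 0.18, without the lower value in litter 3. On the same count litter 3 was still lowest for mt-Co2, at -0.012, 0.048 and -0.10, and for mt-Co3, at -0.18, -0.48 and -0.49, where litter 2 was nearly level with it. Such a count caps every start at 1 alignment, and most starts were in use.

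**Figure D3:**
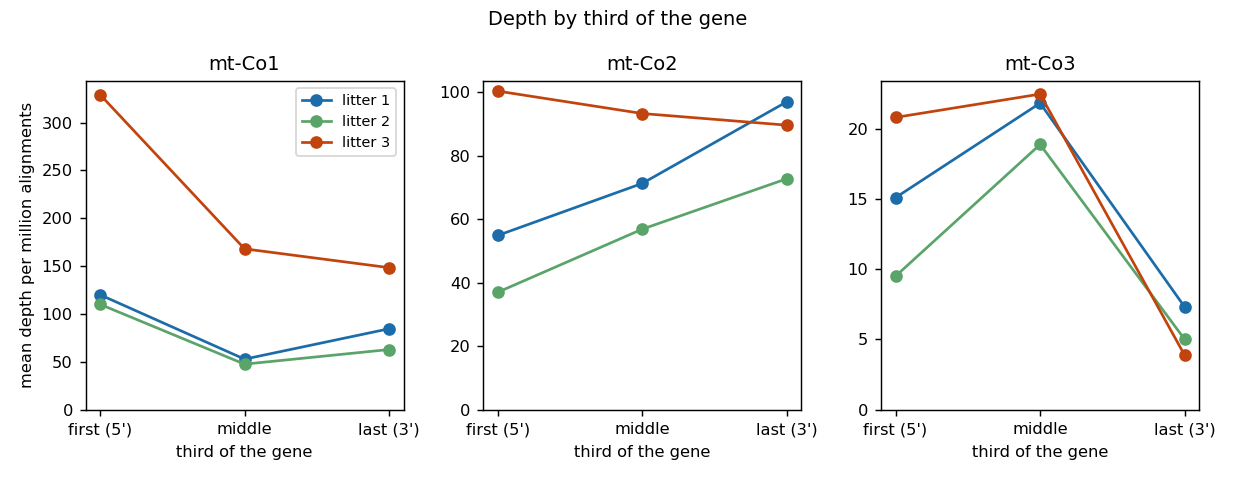
Mean depth per 1000000 alignments (linear axes from 0) over 3 equal parts (first, middle and last) of mt-Co1, mt-Co2 and mt-Co3, with a line for each litter. In mt-Co3 the line of litter 3 goes from the highest of the 3 litters in the first part (20.8) to the lowest in the last (3.88).

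Alignments were spread over most of the start positions. Within mt-Co1, 88.5%, 86.1% and 93.8% of the 1474 possible starts were used in litters 1, 2 and 3. Within mt-Co2 it was 96.4%, 94.1% and 98.5% of 613, and within mt-Co3 it was 79.1%, 71.9% and 76.9% of 713. The 10 most used starts held between 9.37% and 13.7% of the alignments of a gene. The starts most used over the 3 libraries together are shown as the 72 bases an alignment there covers, read from the GENCODE M21 transcripts by position in the gene.
mt-Co1, bases 517 to 588: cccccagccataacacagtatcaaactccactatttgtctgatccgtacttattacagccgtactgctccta
mt-Co2, bases 445 to 516: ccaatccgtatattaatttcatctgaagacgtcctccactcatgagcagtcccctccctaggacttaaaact
mt-Co3, bases 68 to 139: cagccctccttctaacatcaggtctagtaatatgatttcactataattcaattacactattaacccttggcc
The mt-Co1 start was the most used of its gene in each library, with 793, 672 and 3104 alignments in litters 1, 2 and 3. The mt-Co2 start held 481 in litter 1, where it was the most used, and 125 in litter 3, where base 209 was the most used with 439. In litter 2 it held 363, equal to the count at base 444 next to it. The mt-Co3 start held 96, 30 and 95, and was the most used in litter 3 only. In litters 1 and 2 base 295 of mt-Co3 was used most, with 99 and 80. The strand of these alignments is not part of the deposited tracks.

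The use of single starts was alike between litters, most so for litters 1 and 2. Between litters 1 and 2, Pearson's r of log2(count + 1) over the starts was 0.95 in mt-Co1, 0.93 in mt-Co2 and 0.83 in mt-Co3. With litter 3, litter 1 gave 0.83, 0.78 and 0.66 in the same genes, and litter 2 gave 0.83, 0.78 and 0.67. Starts with a higher GC content in their 72 bases held somewhat more alignments, with a Spearman correlation between 0.12 and 0.35 over the 3 genes and 3 litters. Neighbouring starts overlap in sequence and come from 1 library, so these correlations are descriptions.

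Depth was near 0 at some borders of the genes and carried on across others. At the 5' border of mt-Co1, next to the transfer RNA gene mt-Ty, only 8, 2 and 4 alignments lay across the border in litters 1, 2 and 3. At the 3' border of mt-Co2 it was 15, 14 and 23, below 1% of the level of the gene in every litter. At the 5' border of mt-Co2 it was 20, 7 and 193, or 0.764%, 0.396% and 6.38% of the level of mt-Co2. Litter 3 thus had more alignments across this border, upstream of which the transfer RNA gene mt-Td lies. On the scale of the levels, 6.026 crossed it in litter 3, while depth a few bases upstream was 1.561. Most of these alignments therefore began within the last few bases before mt-Co2, and not in the body of mt-Td.

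The 3' border of mt-Co1 had the most alignments across it of the 6 borders in each litter. There 1425, 801 and 1110 alignments crossed in litters 1, 2 and 3, or 40.5, 25.2 and 34.7 per 1000000 (33.5 ± 7.72, SD, n = 3). This is 47.1%, 34.2% and 16.1% of the level of mt-Co1, a mean over the whole gene. Next to the border, depth hardly changed in any litter. It was 40.35, 24.96 and 34.33 in litters 1, 2 and 3 just before the border, and 40.36, 25.18 and 34.51 just past the border. Past it lies mt-Ts1, a transfer RNA gene on the opposite strand, and the mouse mt-Co1 messenger is known to run on into the sequence antisense to it. Depth per 1000000 fell from 30.9 ± 6.99 (SD, n = 3) over the first 20 bases past mt-Co1 to 14.1, 10.2 and 11.6 in litters 1, 2 and 3 over the next 20, and 5.42 ± 0.760 over the 20 after that. From base 81 to base 100 past the gene, in mt-Td, it was 0 in litters 1 and 2 and 1.65 in litter 3. Over the whole of mt-Ts1 the level was 15.7 ± 3.05 (SD, n = 3), above the 0.561 ± 0.899 of mt-Td, the 1.92 ± 1.47 of mt-Tk, which follows mt-Co2, and the 1.54 ± 1.25 of mt-Tg, which follows mt-Co3. Without strand, reads of mt-Ts1 and of a longer mt-Co1 messenger cannot be told apart.

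No transfer RNA gene lies between mt-Atp6 and mt-Co3, and both share base 8607. Across that border lay 128, 13 and 112 alignments in litters 1, 2 and 3, or 24.7%, 3.67% and 22.2% of the mt-Co3 level. Litter 2 had far fewer than the other litters. It was also lower over the first 100 bases of mt-Co3, at 7.08 against 17.1 and 18.8 in litters 1 and 3. Depth in mt-Atp6 fell before the border, from 105, 63.6 and 46.8 about 62 bases before it to 3.01, 0.464 and 3.55 about 10 bases before it. At the 3' border of mt-Co3, 60, 38 and 70 alignments crossed, or 11.6%, 10.7% and 13.9% of the level. That level is a mean over the whole gene, and depth next to the border differed between litters. On the scale of the levels, it fell across the border from 4.562 to 1.322 in litter 1 and from 3.531 to 0.936 in litter 2. In litter 3 it fell less, from 2.599 to 2.139.

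**Figure D4:**
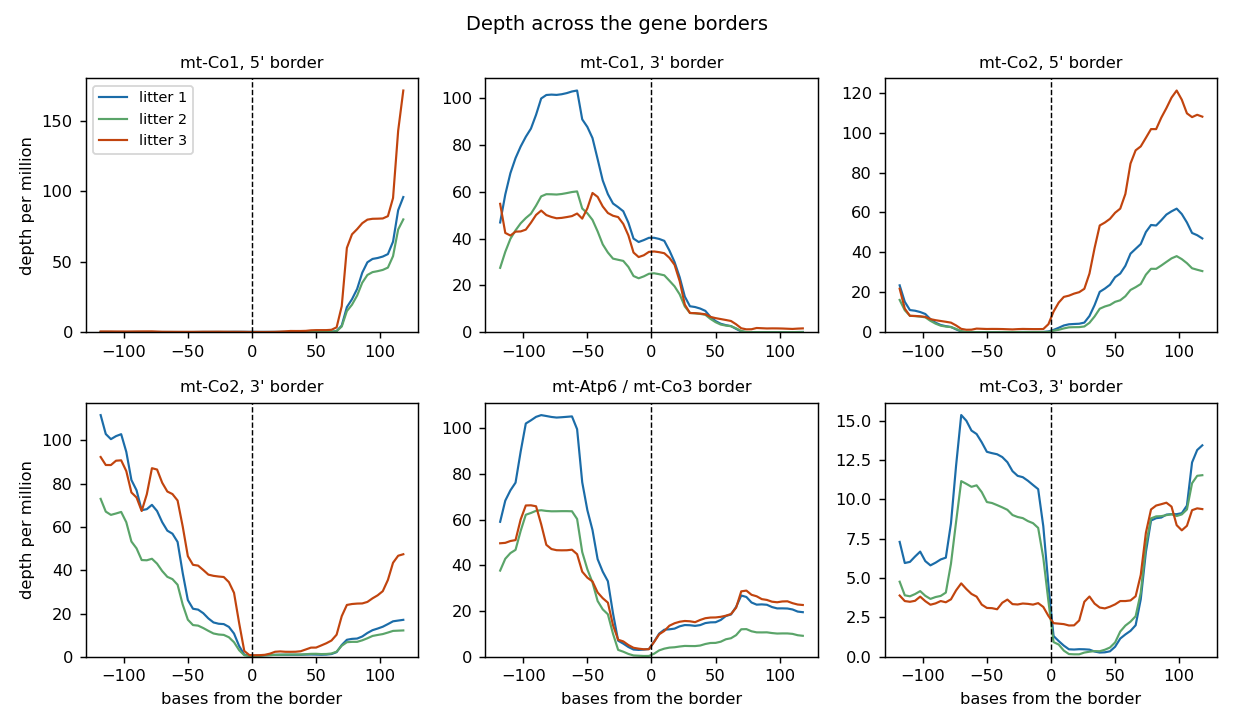
Depth per 1000000 alignments (linear axes from 0) in the 120 bases on each side of 6 borders of mt-Co1, mt-Co2 and mt-Co3, with a line for each litter and the border dashed. Depth carries on past the 3' border of mt-Co1 for about 60 bases and is near 0 at the 5' border of mt-Co1 and the 3' border of mt-Co2.

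The last question was how far the nuclear copy shares the signal of these genes. In the interval of chromosome 1 from 24610001 to 24630000 (mm9), alignments covered bases 24618367 to 24623035, and their counts followed those of the mitochondrial chromosome in reverse order. The 479 identical bases of mt-Co1 pair with chromosome 1 bases 24622545 to 24623023, mt-Co2 with 24621721 to 24622404 and mt-Co3 with 24620027 to 24620810 (mm9, inverted). The pairing was found from the counts. The offset used for the 3 genes gave 1633 positions with equal counts in all litters, an offset 1 base away gave 751, for a stretch further on, and the next best gave 5.

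For mt-Co2 and mt-Co3 the sharing was complete. All 611 starts of mt-Co2 with any alignment had the same count on chromosome 1 in each litter, so 100% of its alignments (24838, 16760 and 28556 in litters 1, 2 and 3) were matched. All 650 starts of mt-Co3 did so too, with 100% of 5534, 3813 and 5399 alignments. For mt-Co1, 397 of 1414 starts were matched, with 24.7%, 21.2% and 18.2% of alignments (21.4% ± 3.28, SD, n = 3). The alignments of a read placed at both sites are counted at both, and the tracks do not tell which site the RNA came from. At starts paired with the 3 genes, chromosome 1 had 0 alignments in excess of the mitochondrial count in each litter. Apart from the mt-Co1 edge, a read that fits chromosome 1 there fits the mitochondrial sequence equally. This 0 therefore cannot tell whether any RNA came from the nuclear copy.

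The edge of sharing lay at the edge of the copy. From base 1067 of mt-Co1 on, where the sequences are identical, chromosome 1 had 100% of the mitochondrial count, with 15773, 10486 and 26684 alignments on both. Where the 72 bases held 1 differing base, chromosome 1 had 93.7% ± 2.27 (SD, n = 3) of the mitochondrial count. With 2 differing bases it had 77.7% ± 4.31, with 3 it had 23.1%, 22.3% and 29.7% in litters 1, 2 and 3, with 4 it had 2.38% ± 0.716, and with 6 it had 0.146% ± 0.252. Each of these classes holds 1 to 4 start positions, apart from the 408 without a difference, and at 3 differing bases the mitochondrial counts were 351, 264 and 542. The fall at the very base where the GENCODE sequences begin to differ also shows that the gene positions used here, taken from GRCm38, hold to the base in the mm9 files at this place.

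**Figure D5:**
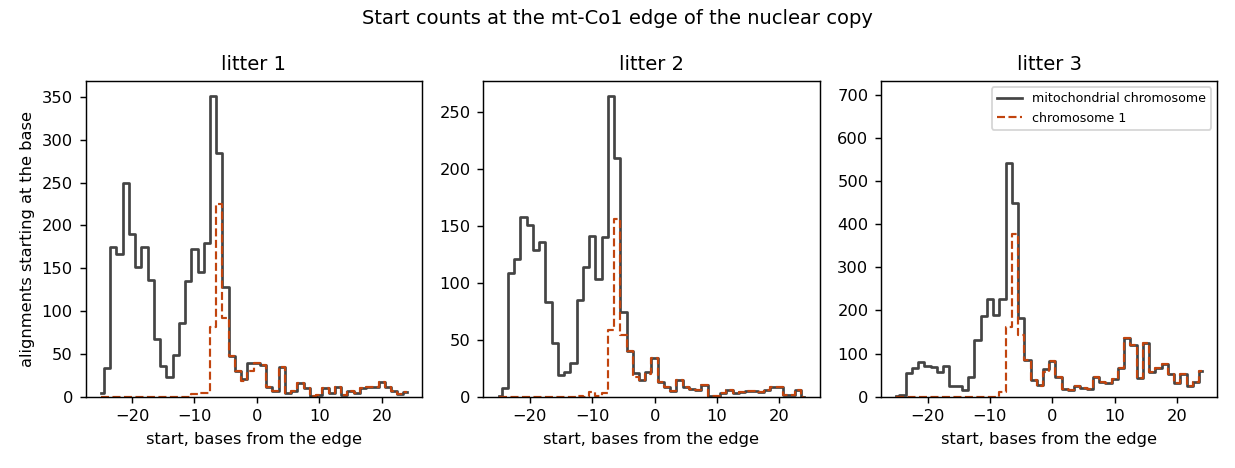
Alignments that start at each base of mt-Co1 around the edge of the nuclear copy, on the mitochondrial chromosome (solid) and at the paired base of chromosome 1 (dashed), with a panel for each litter and linear axes from 0. Distance 0 is base 1067 of the gene. To its right both lines coincide, and to its left the chromosome 1 count falls to 0 within 13 bases.

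The part of mt-Co1 that the chromosome 1 copy lacks gives a level largely free of that copy, apart from alignments that start in its last 12 bases. Over the 1066 bases before the copied stretch the level was 86.9, 78.9 and 247 in litters 1, 2 and 3 (138 ± 94.8, SD, n = 3). Over the 479 copied bases it was 83.7, 61.8 and 145 (96.8 ± 43.1). The copied bases were lower in each litter, least so in litter 1, and litter 3 was highest in both parts. No such part exists for mt-Co2 or mt-Co3.

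Another nuclear place shared part of the signal. Runs of 5 neighbouring starts with at least 20 alignments were looked for in the whole genome, with the same counts in all 3 litters. Besides chromosome 1, they were found only on chromosome 2 (22440001 to 22450000, mm9), for 15.2% of the 1343 runs of mt-Co1 and 23.1% of the 607 of mt-Co2. On chromosome 1, 29.2% of the mt-Co1 runs, 100% of the mt-Co2 runs and 100% of the 523 mt-Co3 runs were found. Runs on chromosome 2 reached from base 5415 to base 6869 of the mitochondrial chromosome for mt-Co1, so part of its stretch outside the chromosome 1 copy is shared there. Of all alignments in the chromosome 1 interval, starts paired with mt-Co2 held 21.7%, 21.3% and 17.5% in litters 1, 2 and 3, those paired with mt-Co1 14.3%, 13.8% and 16.9%, and those paired with mt-Co3 4.84%, 4.85% and 3.32%.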

How the data were processed

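The authors deposited 1 coverage signal per library, the number of alignments over every base, not scaled to depth. Reads were aligned with Bowtie to mm9, per the submitters' processing notes; its version and settings, and how many placements a read could have, are stated neither in the labels nor in the headers. Each track came from the alignments of 1 lane, per the file headers, and holds no strand. Every alignment was taken as 72 gapless bases, so that starts were recovered from depth. On 600000 simulated bases 0 were wrong, but the simulated depth was itself built from 72 gapless bases per alignment. It checks the calculation only, and not whether the deposited alignments have that form. The total of alignments is the summed depth over 72. Gene positions are those of GENCODE M21 on GRCm38, with the mitochondrial chromosome taken as the same in mm9. Levels are mean depth per 1000000 alignments, which repeat a start in 85.2% to 85.6% of cases; background windows of 1 kb needed a mean of 10 per 1000000. A start was matched when its counts in 3 litters equalled those at the paired chromosome 1 base. Litters are the replicates, and with 1 group no test between groups was made. Genes beside the members were named as the other 12 messenger and ribosomal RNA genes, with the 2 nearest patterns out of 14 genes for each member. Members and lists were chosen with earlier results of these data known. Nuclear complex IV subunits and cell markers were not analysed here. Analyses used Python 3.11.15, numpy 2.4.6, pandas 2.3.3, scipy 1.17.1 and matplotlib 3.10.9.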

Additional observations from a re-analysis of the deposited data

How the results depend on the processing

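No paired analysis was possible because the study has 1 group. Of 105 alternatives over 15 results, 45 left out a litter and 39 of those kept the value within its limit. Of the other 60, 36 did so. The limit was 1 SD between litters or, for the ratio of the highest to the lowest litter, its counting interval. Many of these outcomes were fixed in advance. Leaving out 1 of 3 litters cannot move a mean by 1 SD, and leaving out the middle litter cannot change such a ratio. The shares of mt-Co2 and mt-Co3 matched on chromosome 1 had to stay at 100%. Mean levels per 1000000 mitochondrial alignments, or with each start counted once, are on other scales than their limit. The counts are thus no measure of how stable the results are.
When alignments that share a start were counted as 1, the mean levels of mt-Co1, mt-Co2 and mt-Co3 were 13.2, 13.2 and 10.9, and the ratios of the highest to the lowest litter 1.13, 1.11 and 1.07. On that count the log2 ratio of the last to the first part was 0.16, -0.022 and -0.38, with the sign turned for mt-Co1 and mt-Co2. The log2 ratio of mt-Co2 over mt-Co1 was 0.0080, also with its sign turned, that of mt-Co3 over mt-Co1 -0.27, and that of mt-Co3 over mt-Co2 -0.28. The share of mt-Co1 matched on chromosome 1 was 28.3%. By its construction this count saturates, since 71.9% to 98.5% of starts were in use.
Per 1000000 mitochondrial alignments the mean levels were 5782, 3828 and 730.0, and the ratios of the highest to the lowest litter 1.32, 1.49 and 1.78. For mt-Co1 that ratio was 2.98 per 1000000 other alignments, 2.76 by median depth and 2.75 when scaled by the median ratio of windows. For mt-Co2 it was 2.09 by median depth and 1.60 by the median ratio of windows, a scaling chosen after seeing the data. The mean levels per 1000000 mitochondrial alignments are in another unit than the main ones, so their move is one of scale. The cause of the moves in the ratios was not tested.
Leaving out a litter gave ratios of the highest to the lowest of 1.17 to 2.93 for mt-Co1, 1.27 to 1.70 for mt-Co2 and 1.07 to 1.41 for mt-Co3. Litter 3 decided the mt-Co1 values: without it the ratio was 1.17 and the mean level 79.8, against 2.93 and 125 with it. An alternative that leaves out bases also placed on chromosome 1 was not run for mt-Co2 and mt-Co3, since no base is left.
With 3 libraries the exact sign-flip permutation test cannot go below 0.25. Without strand or read names neither the strand nor the site of origin of an alignment is known.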

Other observations

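Outside the 3 genes, a few alignments in the chromosome 1 interval exceeded the mitochondrial count at the paired base, numbering 20, 8 and 94 in litters 1, 2 and 3. Within the 3 genes there were 0 in each litter.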
